A study of Homo sapiens with 6 samples.

Results

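Metallothioneins and the genes that sense and export zinc were followed in 67R cells after knockdown of BCAT1. The 8 genes described here are MT1E, MT1F, MT1G, MT1M, MT1X, MT2A, SLC30A1 and MTF1, chosen by gene symbol, and each matched 1 of the 60664 genes in the table. Of these, 6 averaged 1 TPM or more over all libraries and were tested, while MT1G and MT1M lay under that level. 67R is a subline of NCI-H1975, a lung adenocarcinoma line with mutant EGFR, selected for resistance to ASK120067, an EGFR inhibitor, under increasing doses. All libraries came from this resistant line, 3 from cells given negative control siRNA (siNC) and 3 from cells given siRNA against BCAT1 (siBCAT1), an enzyme that transfers amino groups from branched-chain amino acids. The labels name no single siRNA, although the methods of the study use siBCAT1 as another name for siBCAT1-2, and they leave out the time after transfection and whether the libraries came from separate cultures, so p-values measure only the spread between these libraries. TPM corrects the reads of a gene for its length and for the size of the library, so levels of different genes can be compared roughly. Read counts and total depth are not known from it. The metallothioneins are listed with short lengths, from 232 bases for MT1M to 746 for MT1E. How fragment size, which is not given, bears on genes this short was not tested.

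Metallothioneins are small, cysteine-rich proteins that bind zinc and copper and buffer their free levels in the cytosol, and they also bind toxic metals such as cadmium. When free zinc rises, the zinc finger factor MTF1 binds metal response elements in the promoters of the metallothionein genes and of SLC30A1, which encodes the zinc exporter of the plasma membrane. MT2A is also a classic target of glucocorticoids. In human cells the functional MT1 genes and MT2A lie side by side on chromosome 16, while SLC30A1 and MTF1 lie apart on chromosome 1.

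The core of the metal response element was searched in the promoters of these genes, since it is the sequence through which MTF1 acts. Promoters from RefSeq (GRCh38.p14) matched 4 of the 8 genes, MT2A, MT1X, SLC30A1 and MTF1, as well as MT1B, MT1H and MT4 of the same family. The 7-base words TGCACNC and TGCGCNC were counted on both strands, overlaps included, in the 250 bases before the start of each gene as RefSeq places it, which for all 4 genes differs from the end of the gene given further on from GENCODE. MT2A held 7 matches and MT1X 4, where 0.0313% and 0.37% of the 35116 promoters searched held as many. SLC30A1 held 1 match, where 24.8% of all promoters held at least 1, and MTF1 held 0. A match is a description of the letters and not evidence that the site is bound. Near the start, 4 promoters of the family held a match at almost the same distance, 54 bases before the start in MT2A and 53 in MT1X, MT1B and MT1H. MT4 held none there, its nearest match lying 90 bases before the start. Other spacings were shared too, such as 78 bases in MT1X and MT1H and 79 in MT1B. The 4 matches at 53 or 54 bases are shown because the spacing is shared among genes with very different levels. The 7 matching bases are in capitals, with 10 bases on each side, on the plus strand of chromosome 16.
MT2A, chr16:56608520-56608546: gcggggctttTGCACTCgtcccggctc
MT1X, chr16:56682407-56682433: gcggggcctcTGCGCCCggccctcttc
MT1B, chr16:56651823-56651849: gcggggcctcTGCACCCcaccacctcc
MT1H, chr16:56669751-56669777: gcagggtctcTGCACCCggctccctcc
Of these 4 genes, MT2A and MT1X were expressed, while MT1B and MT1H were listed at 0 in all 6 libraries, although the MT1H promoter held 8 matches. Further upstream, MT2A and MT1X each held a pair of matches on the plus strand within a short stretch. They lay at 153 and 139 bases before the start in MT2A and at 150 and 122 bases in MT1X. MT1H, listed at 0, also held plus-strand matches in this stretch, at 160, 144 and 126 bases, so such matches are not particular to the expressed genes. Those of MT2A and MT1X are shown.
MT2A, chr16:56608421-56608447: cagagccgggTGCGCCCggcccagtgc
MT2A, chr16:56608435-56608461: cccggcccagTGCGCGCggccgggtgt
MT1X, chr16:56682310-56682336: ggccccgcggTGCGCCCggcgctgggc
MT1X, chr16:56682338-56682364: cacgggttgcTGCACCCggcccaggat
The single match of SLC30A1 lies on the strand opposite to the gene, 49 bases before the start, and is shown on the gene's strand, the minus strand of chromosome 1, as the reverse complement of the searched word.
SLC30A1, chr1:211579194-211579220: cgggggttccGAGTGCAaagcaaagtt

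BCAT1, the targeted gene, fell from 38.2 ± 7.33 TPM under siNC to 7.96 ± 0.841 TPM under siBCAT1 (SD, n = 3 each) and had a log2 fold change of -2.12. Among the 14286 genes of at least 1 TPM on average, 27.1% had an adjusted p under 0.05 from limma on log2(TPM + 1) with Benjamini-Hochberg adjustment, of which more were higher than lower in siBCAT1 cells. Of 10 epithelial and lung adenocarcinoma markers, 7 had a mean of at least 1 TPM, and the alveolar markers NKX2-1, NAPSA and SFTPB lay at or below 0.33 TPM in every library. The summed level of the 10 markers was 2564 to 2970 TPM in siNC and 1664 to 1952 TPM in siBCAT1 cells. Of 6 markers of other cells, PTPRC, CD3E, PECAM1 and COL3A1 were at or below 0.79 TPM, and the sum, carried by CD68 and COL1A1, was 41.4 to 54.9 TPM in siNC and 61.8 to 69.3 TPM in siBCAT1 cells. The part of these shifts in the results below was not tested. Since the libraries are of bulk RNA, fewer cells with a transcript and less of it per cell cannot be told apart.

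After knockdown of BCAT1, the metallothionein genes did not move together. MT2A, by far the most abundant of them, rose, MT1E fell, and MT1X and MT1F did not pass the test. The sensor MTF1 rose, whereas the exporter SLC30A1 was at almost the same level in both groups. In all, 2 of the 6 tested genes were called higher and 1 lower, which is 3 of 6 against 27.1% of all genes tested (16.7% called higher and 10.4% called lower). The median log2 fold change of the 6 genes was -0.08, against 0.04 over all genes tested. The count is small and rests on single libraries: without siBCAT1 replicate 1 it was 0 of 6, without siBCAT1 replicate 2, siBCAT1 replicate 3 or siNC replicate 2 it was 1, and without siNC replicate 1 or 3 it was 2. Under median-ratio scaling it was 1 as well.

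**Figure D1:**
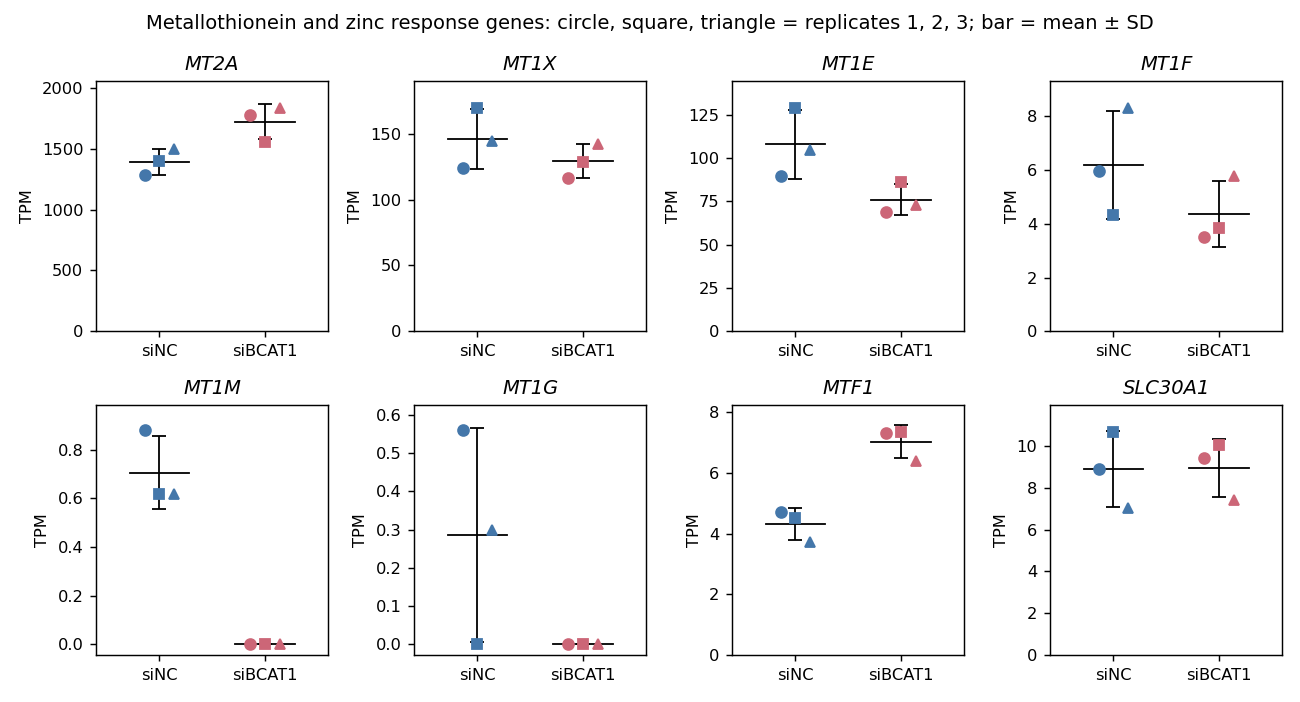
TPM (vertical axes, linear, each with its own scale) of the 8 genes in siNC (blue) and siBCAT1 (red) libraries, with replicates 1, 2 and 3 as circle, square and triangle and the mean ± SD in black. The groups do not overlap for MT2A, MT1E, MTF1 and MT1M, and they overlap for MT1X, MT1F, MT1G and SLC30A1. Among all 14286 genes tested the groups do not overlap for 44.1%, and MT1M and MT1G are not among those tested.

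MT2A (ENSG00000125148, chromosome 16, 56608199 to 56609497, plus strand in GENCODE 29 on GRCh38) encodes the main metallothionein of most human tissues. It measured 1285, 1402 and 1496 TPM in siNC replicates 1, 2 and 3, against 1779, 1561 and 1839 TPM in siBCAT1 replicates 1, 2 and 3. All siBCAT1 libraries lay above all siNC libraries, and the gap between the groups was narrow, between siNC replicate 3 and siBCAT1 replicate 2. The mean went from 1394 ± 105 to 1726 ± 146 TPM (SD, n = 3 each), and by this level MT2A ranked 123 among all genes in siNC and 92 in siBCAT1 cells. The log2 fold change was 0.31 (SE 0.08, 95% interval 0.12 to 0.49, limma adjusted p = 0.0259). The call was lost under median-ratio scaling of the libraries (limma adjusted p = 0.105), without the filter on low values (0.0996), and without siNC replicate 1 (0.101), siNC replicate 2 (0.0594), siBCAT1 replicate 1 (0.101) or siBCAT1 replicate 3 (0.0944), while the direction held in all 12 alternatives run.

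MT1E (ENSG00000169715, chromosome 16, 56625475 to 56627112, plus strand), a metallothionein of the MT1 branch, went the other way. Its level was 89.99, 129 and 105 TPM in siNC replicates 1, 2 and 3, against 69.0, 86.3 and 72.8 TPM in siBCAT1 replicates 1, 2 and 3. Again no siBCAT1 library reached the siNC range, with siBCAT1 replicate 2 just under siNC replicate 1. The mean fell from 108 ± 19.8 to 76.0 ± 9.10 TPM (mean ± SD, n = 3 each), giving a log2 fold change of -0.49 (SE 0.14, 95% interval -0.82 to -0.16, limma adjusted p = 0.0395). This call was lost under median-ratio scaling (limma adjusted p = 0.0526), without the filter on low values (0.115), and without siNC replicate 2 (0.0761), siNC replicate 3 (0.109), siBCAT1 replicate 1 (0.136), siBCAT1 replicate 2 (0.0538) or siBCAT1 replicate 3 (0.122), again with the direction kept throughout.

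MT1X (ENSG00000187193, chromosome 16, 56682424 to 56684196, plus strand) was the next most abundant metallothionein after MT2A. It measured 124, 170 and 144 TPM in siNC replicates 1, 2 and 3, against 116, 129 and 143 TPM in siBCAT1 replicates 1, 2 and 3. The groups overlapped widely, since siBCAT1 replicates 2 and 3 lay within the siNC range. Its log2 fold change was -0.17 (95% interval -0.46 to 0.12, limma adjusted p = 0.353). MT1F (ENSG00000198417, chromosome 16, 56657694 to 56660698, plus strand) was weakly expressed, at 5.96, 4.31 and 8.32 TPM in siNC replicates 1, 2 and 3, against 3.51, 3.83 and 5.79 TPM in siBCAT1 replicates 1, 2 and 3. Only siBCAT1 replicate 3 lay within the siNC range, and the log2 fold change was -0.41 with a wide interval (-0.98 to 0.17, limma adjusted p = 0.261). The 95% intervals of MT1X and MT1F both hold 0, and that of MT1F also holds a change as large as that of MT1E.

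MT1M and MT1G, both MT1 genes of the same cluster, were near the lower end of what the table lists. MT1M (ENSG00000205364) measured 0.88, 0.62 and 0.62 TPM in siNC replicates 1 to 3 and was listed at 0 in all 3 siBCAT1 libraries. MT1G (ENSG00000125144) measured 0.56, 0 and 0.30 TPM in siNC replicates 1 to 3 and also listed at 0 in all 3 siBCAT1 libraries. Without counts no fold can be given against a group at 0, and a level of this size was not tested in the main fit. Without the filter on low values both genes were tested, and MT1M was called lower. Levels this low were not read as changes.

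**Figure D2:**
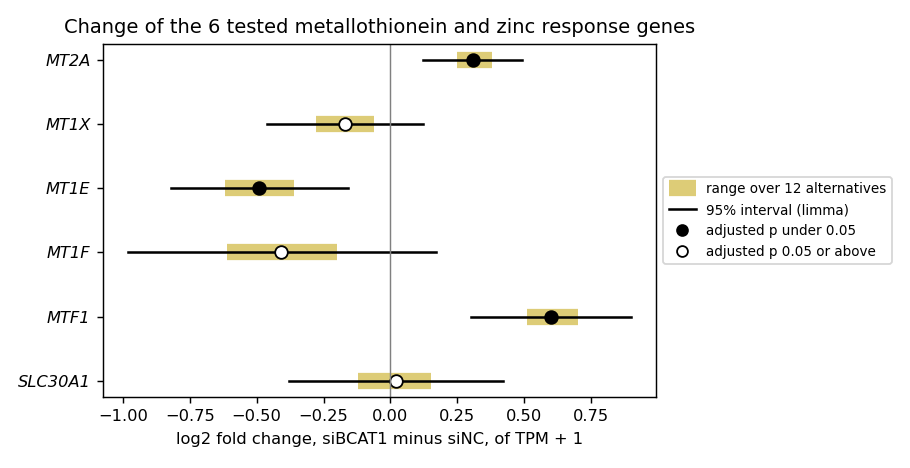
Log2 fold change of TPM + 1 (horizontal axis, siBCAT1 minus siNC) of the 6 tested genes, with the 95% interval from limma as a line and the range over 12 alternatives as a broad bar; filled points have an adjusted p under 0.05. MT2A (0.31) and MTF1 (0.60) lie to the right of 0, MT1E (-0.49) to the left, and the intervals of MT1X, MT1F and SLC30A1 cross 0.

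The make-up of the metallothionein mRNA pool was then compared within each library, since shares and ratios of genes in one library do not depend on how libraries are scaled to each other. These are descriptions without a test. The summed level of the 6 metallothioneins was 1507, 1706 and 1754 TPM in siNC replicates 1, 2 and 3, against 1968, 1780 and 2060 TPM in siBCAT1 replicates 1, 2 and 3. MT2A supplied 82.2% to 85.3% of this sum in siNC and 87.7% to 90.4% in siBCAT1 libraries. MT1X supplied 8.23% to 9.95% in siNC and 5.92% to 7.23% in siBCAT1 libraries, and MT1E 5.97% to 7.57% and 3.50% to 4.85%. None of these 3 shares overlapped between the groups, but they are parts of the same sum and not separate results. The TPM values of MT1X itself overlapped between the groups. For TPM of single genes, a different measure, the groups did not overlap for 44.1% of the genes tested.
The ratio of MT2A to MT1E was 14.3, 10.9 and 14.2 in siNC replicates 1, 2 and 3 and 25.8, 18.1 and 25.3 in siBCAT1 replicates 1, 2 and 3. The ratio of MT2A to MT1X was 10.4, 8.26 and 10.4 in siNC and 15.3, 12.1 and 12.9 in siBCAT1 replicates 1, 2 and 3. Replicate 2 had the lowest of both ratios in both groups. Between the MT1 genes themselves the ratio of MT1X to MT1E moved less, from 1.31 to 1.38 in siNC and from 1.49 to 1.96 in siBCAT1 libraries. The sum of the 5 MT1 genes was 222 to 304 TPM in siNC and 189 to 221 TPM in siBCAT1 libraries. The groups almost met, at 222 TPM in siNC replicate 1 and 221 TPM in siBCAT1 replicate 3. On average the higher total of the pool came with a lower MT1 sum, 261 ± 41.2 TPM in siNC and 210 ± 17.9 TPM in siBCAT1 (SD, n = 3 each).

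**Figure D3:**
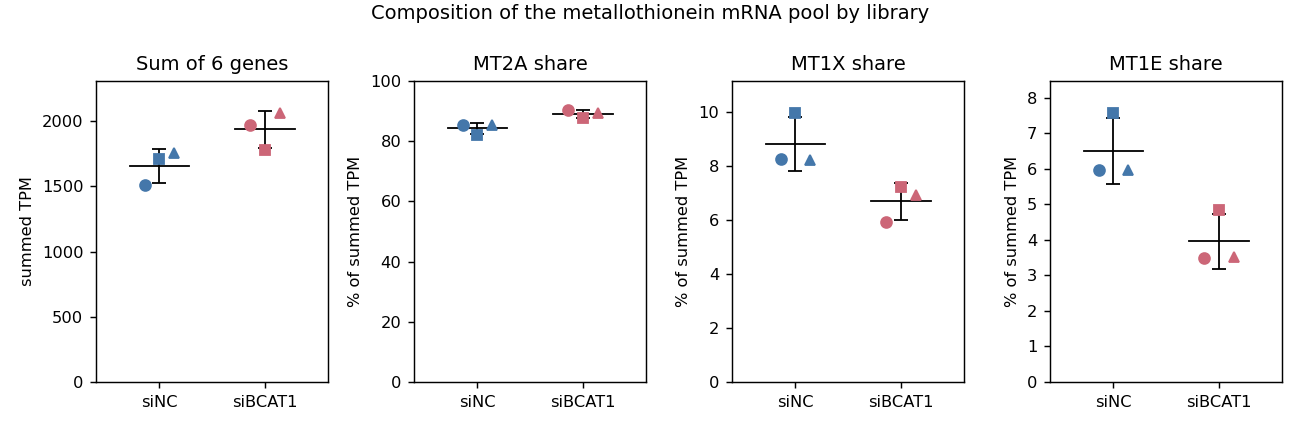
Summed TPM of the 6 metallothioneins (first panel) and the share of MT2A, MT1X and MT1E in that sum in percent (other panels) per library, with replicates 1, 2 and 3 as circle, square and triangle and the mean ± SD in black. The MT2A share is 84.2% on average in siNC (blue) and 89.1% in siBCAT1 (red), and the MT1E share 6.51% and 3.96%.

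The order of levels was MT2A, MT1X, MT1E, SLC30A1, MT1F, MTF1, MT1M and MT1G in siNC cells. Neighbours in this order overlapped between their libraries for MT1X and MT1E, for SLC30A1 and MT1F, and for MT1F and MTF1, and were apart for the others. In siBCAT1 cells MTF1 and MT1F changed places, and of all neighbours only MT1G and MT1M, both listed at 0, shared values.

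Sequence likeness limits how reads are told apart in this family. In GENCODE 29 transcripts, 18.3% of the different 50-base words of MT1X and 16.5% of those of MT1G also occurred in a transcript of another gene, against 9.87% for MT1M, 7.10% for MT1E, 3.02% for MT2A and 1.22% for MT1F. These words were pooled over all annotated transcripts of a gene, 1867 different words for MT1X and 1971 for MT1F. The lengths listed for these genes are only 404 and 425 bases, so the shares also depend on how much sequence is annotated. The share within the listed length was not computed. MT1X shared words with MT1G, the pseudogene MT1XP1 and a gene without a symbol. MT1E shared words with MT1G, MT1JP and MT1M, and MT2A with MT1G, MT1X and the pseudogene MT2P1. The read length and the treatment of reads with several places are not given in the sources used here. The values of MT1X, MT1G and MT1M, with the highest shares, are therefore uncertain in this respect. Those of the other genes may be more uncertain than their shares show.

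Of 15 further metallothionein genes and pseudogenes, 11 were listed at 0 in every library, MT3, MT4, MT1B and MT1H among them, and 3 were tested, with 0 past the threshold of limma and 0 at an unadjusted p under 0.05. MT1A measured 2.96, 3.14 and 5.64 TPM in siNC replicates 1, 2 and 3, against 4.61, 0.96 and 1.10 TPM in siBCAT1 replicates 1, 2 and 3. Its log2 fold change was -0.75 (limma adjusted p = 0.240), and without siBCAT1 replicate 1, the library in which it was high, -1.23 (0.0359). MT1L, annotated as a pseudogene, measured 4.92, 0.58 and 3.18 TPM in siNC replicates 1, 2 and 3, against 6.92, 5.04 and 4.74 TPM in siBCAT1 replicates 1, 2 and 3, with a log2 fold change of 0.94 (limma adjusted p = 0.169). MT1XP1, a pseudogene of MT1X, was listed at 0 in 5 libraries and at 6.57 TPM in siBCAT1 replicate 1.

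Along chromosome 16 the tested genes of the cluster showed no common direction. MT2A and MT1E, 17.3 kb from the start of MT2A, moved in opposite directions. MT1L lies between them, at 9.3 kb, with a log2 fold change of 0.94. MT1A, MT1F and MT1X follow at 30.5, 49.5 and 74.2 kb, with log2 fold changes of -0.75, -0.41 and -0.17. MT1L, MT1A, MT1F and MT1X did not pass the threshold, so their directions are uncertain. Of 7 genes flanking the cluster, 5 were tested, of which 2 were higher and 0 lower, beside 16.7% and 10.4% of all genes, with a median log2 fold change of 0.18. OGFOD1, a dioxygenase that modifies a ribosomal protein, was at 90.2 ± 19.4 TPM with siNC against 131 ± 3.87 TPM with siBCAT1 (mean ± SD, n = 3 each) and had a log2 fold change of 0.55 (limma adjusted p = 0.0244). NUP93, a component of the nuclear pore, was at 189 ± 11.1 and 237 ± 9.12 TPM (SD, n = 3 each; log2 fold change 0.32, limma adjusted p = 0.00941). HERPUD1, a gene of the unfolded protein response, was at 97.1 ± 7.59 and 84.1 ± 5.56 TPM and did not pass (SD, n = 3 each; log2 fold change -0.20, limma adjusted p = 0.107), but did so with the replicate block (0.030), under quantile normalization (0.038) and without siNC replicate 2 (0.0403). The call of OGFOD1 was lost in 6 of the 12 alternatives, among them the loss of any library except siNC replicate 2 (limma adjusted p up to 0.102). That of NUP93 was lost in 1, median-ratio scaling (limma adjusted p = 0.0511).

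**Figure D4:**
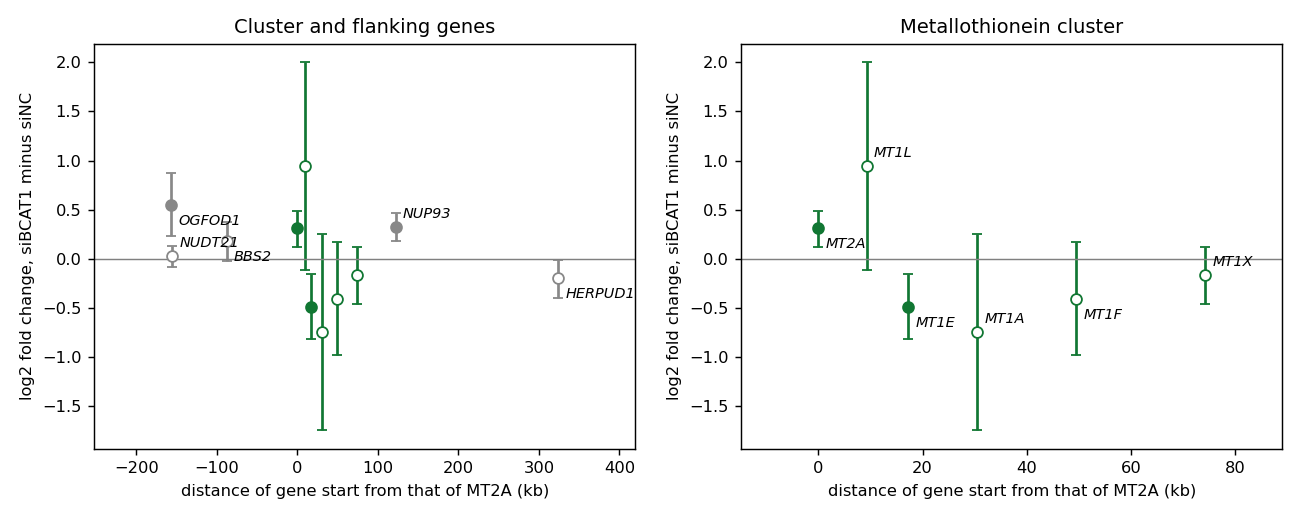
Log2 fold change (vertical axis, siBCAT1 minus siNC, with the 95% interval from limma) against the distance of each gene's start from that of MT2A in kb, for the metallothionein cluster with its flanking genes (left) and for the cluster alone (right); metallothioneins are green, other genes grey, and filled points have an adjusted p under 0.05. MT2A at 0 kb lies above 0 and MT1E at 17.3 kb below it, and the flanking OGFOD1 and NUP93 lie above 0.

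MTF1 (ENSG00000188786, chromosome 1, 37809567 to 37859620, minus strand), the metal-sensing transcription factor, measured 4.73, 4.51 and 3.71 TPM in siNC replicates 1, 2 and 3, against 7.32, 7.37 and 6.40 TPM in siBCAT1 replicates 1, 2 and 3. Every siBCAT1 library lay well above every siNC library, and replicate 3 was the lowest of each group. The mean rose from 4.32 ± 0.537 to 7.03 ± 0.546 TPM (mean ± SD, n = 3 each), giving a log2 fold change of 0.60 (SE 0.13, 95% interval 0.30 to 0.90, limma adjusted p = 0.0139). The call held in 10 of the 12 alternatives, and was just missed without siBCAT1 replicate 1 (limma adjusted p = 0.0555) or siBCAT1 replicate 2 (0.0580).

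SLC30A1 (ENSG00000170385, chromosome 1, 211571568 to 211578742, minus strand), the zinc exporter, measured 8.91, 10.7 and 7.04 TPM in siNC replicates 1, 2 and 3, against 9.43, 10.03 and 7.40 TPM in siBCAT1 replicates 1, 2 and 3. The siBCAT1 libraries all lay within the siNC range, and in both groups replicate 2 was highest and replicate 3 lowest. The log2 fold change was 0.02 (95% interval -0.38 to 0.42, limma adjusted p = 0.952), and its sign turned under median-ratio scaling and without siNC replicate 3, siBCAT1 replicate 1 or siBCAT1 replicate 2. The interval does not leave out a change of the size seen for MT2A in either direction.

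Zinc carriers of both families were counted next. Exporters of the SLC30A family move zinc out of the cytosol into the medium or into organelles, and of 10 genes, SLC30A1 among them, 5 were tested and 0 passed the threshold of limma, there or in the 12 alternatives, with 0 at an unadjusted p under 0.05. The smallest adjusted p among them was that of SLC30A6, a carrier of the Golgi, at 6.99 ± 0.398 TPM with siNC against 8.32 ± 0.632 TPM with siBCAT1 (mean ± SD, n = 3 each; limma adjusted p = 0.162), named here after its value was seen. Importers of the SLC39A family bring zinc into the cytosol, and of 14 genes 11 were tested, of which 3 rose and 2 fell, with a median log2 fold change of 0.12. Over all genes tested 16.7% were called higher and 10.4% lower, with a median of 0.04.
SLC39A10, an importer of the plasma membrane, measured 18.55, 20.05 and 16.42 TPM in siNC replicates 1, 2 and 3, against 11.95, 9.12 and 10.4 TPM in siBCAT1 replicates 1, 2 and 3. The groups were clearly apart. Its mean fell from 18.3 ± 1.82 to 10.5 ± 1.42 TPM (mean ± SD, n = 3 each), giving a log2 fold change of -0.75 (SE 0.12; limma adjusted p = 0.00499), the largest change among the zinc carriers tested and past the threshold in all 12 alternatives.
SLC39A7, which releases zinc from the endoplasmic reticulum, measured 96.7, 93.6 and 94.1 TPM in siNC replicates 1, 2 and 3, against 133, 128 and 126 TPM in siBCAT1 replicates 1, 2 and 3. Its log2 fold change was 0.44 (SE 0.05; limma adjusted p = 0.00156). SLC39A6, a partner of SLC39A10 at the plasma membrane, measured 59.5, 57.6 and 52.3 TPM in siNC replicates 1, 2 and 3, against 77.6, 74.8 and 77.2 TPM in siBCAT1 replicates 1, 2 and 3, with a log2 fold change of 0.43 (SE 0.07; limma adjusted p = 0.00438). Both held in all 12 alternatives, so the partners SLC39A6 and SLC39A10 moved in opposite directions. SLC39A3 (log2 fold change 0.24, limma adjusted p = 0.0355) and SLC39A4 (-0.21, 0.0454), the latter named after its value was seen, were past the threshold here and lost the call in 8 of the 12 alternatives each.

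**Figure D5:**
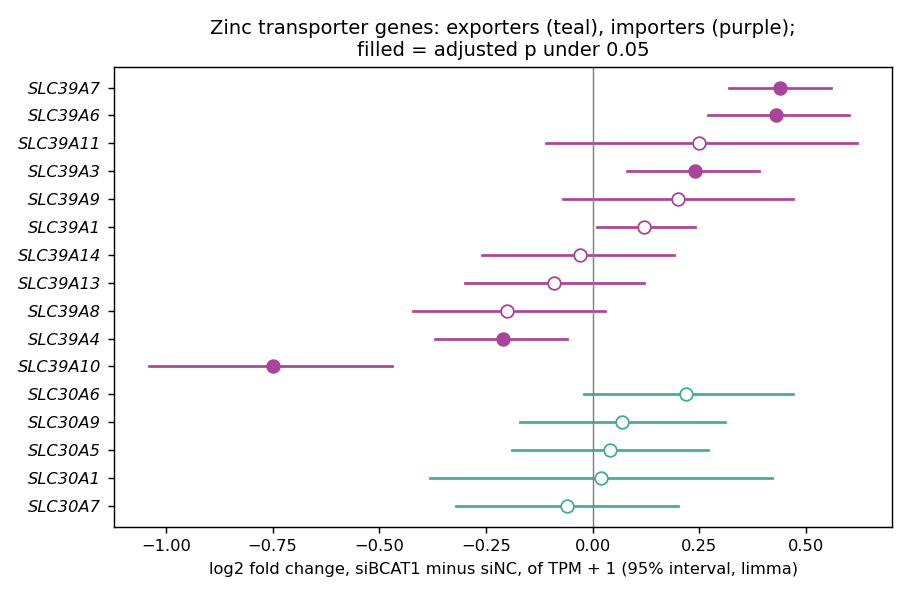
Log2 fold change of TPM + 1 (horizontal axis, siBCAT1 minus siNC, 95% interval from limma) of the 5 tested SLC30A exporters (teal) and the 11 tested SLC39A importers (purple), with filled points for an adjusted p under 0.05. SLC39A10 stands apart at -0.75, SLC39A7 and SLC39A6 lie at 0.44 and 0.43, and the intervals of the exporters all cross 0.

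Copper is also bound by metallothioneins, and of 15 genes of copper handling 13 were tested, with 4 higher and 2 lower, beside 16.7% and 10.4% of all genes, and a median log2 fold change of 0.08. COX17, the copper chaperone that feeds cytochrome c oxidase, rose from 47.8 ± 6.24 to 84.4 ± 10.4 TPM (SD, n = 3 each; log2 fold change 0.81, limma adjusted p = 0.00375). SCO1, which acts after it in the same delivery, rose from 42.8 ± 4.93 to 62.0 ± 1.31 TPM (SD, n = 3 each; log2 fold change 0.53, limma adjusted p = 0.00559). STEAP3, a metal reductase, fell from 28.7 ± 0.344 to 16.4 ± 0.422 TPM (log2 fold change -0.77, limma adjusted p = 0.000592), and SLC31A1, the copper importer of the plasma membrane, from 24.9 ± 1.45 to 18.2 ± 0.994 TPM (log2 fold change -0.43, limma adjusted p = 0.00941; SD, n = 3 each for both). These 4 genes were past the threshold in all 12 alternatives, while the count of higher genes was 2 under median-ratio scaling, quantile normalization and no filter, and 2 without siNC replicate 1, siNC replicate 3 or any single siBCAT1 library.

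Among 12 genes of the glucocorticoid receptor and its response, 11 were tested, with 2 higher, 4 lower and a median log2 fold change of -0.45, beside 16.7% higher, 10.4% lower and a median of 0.04 for all genes. FKBP5, a co-chaperone of the receptor and one of its common targets, rose from 11.2 ± 1.67 to 24.7 ± 1.42 TPM (SD, n = 3 each; log2 fold change 1.08, limma adjusted p = 0.00107), and FKBP4, another co-chaperone, from 273 ± 23.4 to 467 ± 44.8 TPM (SD, n = 3 each; log2 fold change 0.77, limma adjusted p = 0.00131). The targets ANGPTL4 (5.45 ± 1.01 to 1.62 ± 0.399 TPM; SD, n = 3 each; log2 fold change -1.30, limma adjusted p = 0.00334) and TSC22D3 (15.8 ± 2.78 to 8.36 ± 0.898 TPM; SD, n = 3 each; log2 fold change -0.83, limma adjusted p = 0.00664) fell. The other 2 lower genes, the receptor NR3C1 and its target SGK1, had log2 fold changes of -0.46 and -0.48 (limma adjusted p = 0.0143 and 0.0295) and are named after their values were seen. The call of NR3C1 was lost without siNC replicate 1 (0.0645) or siBCAT1 replicate 3 (0.0517). That of SGK1 was lost without the filter (0.0805) and without siNC replicate 1 (0.0816), siNC replicate 2 (0.0574), siBCAT1 replicate 1 (0.104) or siBCAT1 replicate 3 (0.0926). Without siNC replicate 1 the count of lower genes was 2.

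Of 12 genes that metals such as cadmium induce through the heat shock and NRF2 responses, all 12 were tested, with 3 higher and 3 lower, beside 16.7% and 10.4% of all genes, and a median log2 fold change of 0.06. GCLM, a subunit of the enzyme that makes the glutathione precursor, rose from 5.53 ± 0.976 to 9.35 ± 0.805 TPM (SD, n = 3 each; log2 fold change 0.67, limma adjusted p = 0.0117), and HSPH1, a heat shock protein, from 44.8 ± 4.65 to 65.4 ± 10.1 TPM (SD, n = 3 each; log2 fold change 0.53, limma adjusted p = 0.0197). TXNRD1, thioredoxin reductase, fell from 154 ± 22.1 to 98.3 ± 4.17 TPM (SD, n = 3 each; log2 fold change -0.63, limma adjusted p = 0.00521), and BAG3, a co-chaperone, from 62.7 ± 3.18 to 45.4 ± 7.72 TPM (SD, n = 3 each; log2 fold change -0.47, limma adjusted p = 0.0255). The calls of GCLM, HSPH1 and BAG3 were lost in 3, 4 and 5 of the 12 alternatives, siNC replicates 1 and 3 being among the libraries whose loss ended each, and without either of these 2 libraries the count of higher genes was 1. The remaining called genes, HMOX1 (log2 fold change 0.41, limma adjusted p = 0.00753) and TXN (-0.38, 0.0029), are named after their values were seen. Their alternatives are not shown.

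The genes whose profile over the 6 libraries was most like that of MT2A were not metallothioneins. Likeness was the root mean square difference of log2(TPM + 1) after centring each gene on its own mean, and the smallest values were those of ENSG00000188223 (0.0385), CRNKL1 (0.0441), FBL (0.0456), MAP1LC3B (0.0468) and SF3B5 (0.0472), against a median of 0.259 over the tested genes. FBL encodes fibrillarin of the nucleolus, CRNKL1 and SF3B5 encode splicing factors, and MAP1LC3B is a core gene of autophagy. In this order MTF1 ranked 6225, MT1X 8012, SLC30A1 8902, MT1F 12029 and MT1E 12101. The measure takes in the size of a change as well as its direction. The nearest genes had log2 fold changes of 0.27 to 0.36, against 0.31 for MT2A and 0.60 for MTF1.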

How the data were processed

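Per the labels and the methods of the study, the authors prepared stranded mRNA libraries of 67R cells, checked the reads with fastp, mapped them with HISAT2 to GRCh38 and assembled transcripts with StringTie; versions and annotation are not given in the sources used here. The authors deposited 1 value per gene and library, read as TPM from its decimals, the gene length beside it and library sums of 992512 to 995593. No replicates were pooled, and between 23152 and 25043 genes per library were above 0. TPM gives no depth, so precision rests on 3 libraries a group.

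Libraries were grouped by title. Genes averaging 1 TPM or more (14286 of 60664) were fitted on log2(TPM + 1), which understates changes of weak genes, with limma 3.58.1 in R 4.3.3 (eBayes with trend), two-sided, Benjamini-Hochberg over all of them, threshold 0.05, and tested on simulated data.

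The 8 genes and the 7 lists were chosen with earlier results of these data known. Named were these genes, other metallothioneins of at least 1 TPM, up to 4 called genes per list by size of change, the 3 largest changes beside the cluster and the 5 profiles nearest to MT2A. Alternatives were a pseudocount of 0.1, no filter, at least 5 TPM, a replicate block, median-ratio scaling, quantile normalization and each library left out. Positions are from GENCODE 29. A further gene beside the cluster is not reported here and is not among the 7 counted. Python 3.11.15, pandas 2.3.3, numpy 2.4.6 and matplotlib 3.10.9 were used.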

Additional observations from a re-analysis of the deposited data

How the results depend on the processing

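BCAT1 (-2.28 to -2.03), MT1X and MT1F kept direction and side of the threshold in all 12 alternatives. Without the filter on low values, 2567 genes were called (960 lower) and 17 genes of the 7 lists against 25, with more genes tested. The log2 fold changes of MT1E and MT2A were then -0.49 and 0.31, past the threshold no longer, and MT1M, at 0 in all siBCAT1 libraries, was called lower beside MTF1. Under median-ratio scaling 1 of the 8 genes, MTF1, was called, with MT1E at -0.53, MT2A at 0.27 and SLC30A1 at -0.01; the cause was not tested. With each library left out in turn, the calls numbered 2318 to 3706 in all (1435 to 2276 higher, 796 to 1430 lower), 0 to 2 of the 8 genes and 15 to 24 in the lists, and log2 fold changes were -0.62 to -0.36 for MT1E, 0.25 to 0.38 for MT2A, 0.51 to 0.66 for MTF1 and -0.12 to 0.15 for SLC30A1. With the replicate number as a block, 4568 genes were called against 3865, and the same 3 genes, MT2A, MT1E and MTF1, with adjusted p of 0.0247, 0.00633 and 0.0127 from limma. Deviations of same-numbered libraries correlated at 0.0844, 0.102 and 0.124, each the highest for its library, which is a hint of pairing from the data and not from the design. MT1A was past the threshold only without siBCAT1 replicate 1 (-1.23). Counting error is not known from TPM, so levels under 1 TPM were not read as changes.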
